A study of Mus musculus with 55 samples.

Results

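The genes described here are 10 members of the Wnt pathway and its targets in mouse liver: the receptors Lgr4 and Lgr5, the co-receptors Lrp5 and Lrp6, the ubiquitin ligases Znrf3 and Rnf43, the feedback gene Axin2, and the pericentral genes Tbx3, Glul and Oat. They were chosen by name, and all 10 were found among the 24478 gene symbols of the deposited expression table. Znrf3 and Tbx3 have 2 rows each, of which the more abundant on average was taken. RNA was sequenced from 10 populations sorted by FACS from the liver of C57B/L6 mice, either normal or after partial hepatectomy (PH, surgical removal of part of the liver), in 55 libraries. The populations, named as in the sample titles, are hepatocytes (HC), biliary cells (BEC), clonal biliary cells (cBEC), cells labelled non progenitor ducts (NPD), endothelial cells (EC), sinusoidal endothelial cells (LSEC), blood cells, Thy1 cells, Kupffer cells (KC, the resident macrophages) and hepatic stellate cells (HSC, the vitamin A storing pericytes). Normal liver gave 4 libraries each of HC, BEC and cBEC, 3 of LSEC and 2 of each other population. Liver after PH gave 5 libraries of LSEC, 4 of HC, 3 each of EC, KC and HSC, and 2 of each other population. The labels give no time after surgery, age, sex or gate, and do not say whether replicates came from separate animals, so the p-values measure only the spread between these libraries. Values are FPKM, fragments scaled to transcript length and library size, and the read depth behind them is unknown.

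Wnt ligands bind a Frizzled receptor together with Lrp5 or Lrp6, which stabilises beta-catenin and switches on target genes through TCF and LEF factors. Znrf3 and Rnf43 remove Frizzled receptors from the cell surface, and Lgr4 and Lgr5 bind R-spondins, which block that removal. In the liver the endothelium of the central vein secretes Wnt ligands, and the hepatocytes nearest to it express the target genes glutamine synthetase (Glul), ornithine aminotransferase (Oat), the transcription factor Tbx3, the receptor Lgr5 and the scaffold Axin2, which itself limits the signal.

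In the table's own coordinates, on the mouse build mm9 that the submitters' processing notes name, Lgr4 lies at chr2:109757804-109854414, Rnf43 at chr11:87476589-87549041, Axin2 at chr11:108781663-108812095, Tbx3 at chr5:120121242-120134733 and Glul at chr1:155747059-155756853, all on the plus strand. Lgr5 lies at chr10:114887370-115024836, Lrp5 at chr19:3584825-3686564, Lrp6 at chr6:134396496-134516931, Znrf3 at chr11:5176332-5281743 and Oat at chr7:139749158-139768081, all on the minus strand. Each span is a whole transcribed locus, exons and introns together.

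Glul and Axin2 are the members whose change after PH is described in most detail below, and their promoters are shown for the CG pairs they hold. RefSeq promoter windows, on build GRCm38.p6, were matched for 5 members (Glul, Lgr4, Oat, Rnf43 and Axin2). The 120 bases before the start of Glul (chr1:153899809-153899928, plus strand) and of Axin2 (chr11:108920229-108920348, plus strand) are printed 5′ to 3′ with each CG pair in capitals.
Glul: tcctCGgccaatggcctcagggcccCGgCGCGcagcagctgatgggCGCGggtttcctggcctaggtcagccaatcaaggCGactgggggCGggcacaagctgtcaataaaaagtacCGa
Axin2: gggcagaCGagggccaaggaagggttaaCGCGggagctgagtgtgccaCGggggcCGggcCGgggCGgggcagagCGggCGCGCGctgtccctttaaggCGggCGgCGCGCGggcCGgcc
The 250 bases before the start held 15 CG pairs for Glul and 24 for Axin2, against a median of 6 and quartiles of 2 and 16 over the 32851 promoter windows, so that Axin2 lay above the upper quartile and Glul just under it. Letters bound by TCF factors were searched on both strands: AACAAAG (in 5.03% of all windows), ATCAAAG (in 3.21%), TACAAAG (in 3.2%) and then TTCAAAG (in 4.46%), which share their last 5 letters. None was found in the 6 windows of these 5 members (Rnf43 has 2), and 14.8% of all windows of that length hold at least 1.

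A few properties of the libraries touch the values that follow. Of 5 hepatocyte markers (Alb, Apoa1, Ttr, Apob and Cyp3a11) the mean log2(FPKM + 1) was 12.22 to 12.85 in the normal and 11.60 to 12.71 in the PH hepatocyte libraries, so the label and the markers match. Normal hepatocyte libraries 2 and 3 stood apart from libraries 1 and 4: the correlation of log2(FPKM + 1) was 0.991 within each pair and 0.936 to 0.950 between the pairs, and 8 of the 10 members were higher in both 2 and 3 than in 1 and 4, as were 4702 of the 10029 genes tested in hepatocytes. After PH the leukocyte marker score of the blood cell group was 5.03, against 9.20 in normal liver, while the Kupffer and sinusoidal scores were above it, so the PH blood libraries go against their label. In normal Thy1 cells the score of the Thy1 fibroblast markers was 7.53, under the mesothelial score of 8.28. After PH it was 5.18, and the endothelial (8.20), mesothelial (7.55), sinusoidal (7.35) and biliary (6.21) scores were above it. The Thy1 fibroblast score was still higher in Thy1 cells than in any other population, NPD being next (4.60 normal, 3.59 after PH). The Thy1 libraries thus kept their own markers, with markers of other cell types at higher scores in both conditions. In NPD the mesothelial score was above the biliary one, at 9.64 and 7.81 in normal liver and 9.21 and 8.27 after PH. In PH LSEC the endothelial score (8.85) was just above the sinusoidal one (8.66). The tests of whether a response differed between populations are given with and without the blood and Thy1 groups. The first PH cBEC library is tagged as normal liver in its treatment field, and its title was followed. Exact zeros outside hepatocytes were more frequent for genes that hepatocytes express strongly (6.665% of values where hepatocytes had 300 FPKM or more, 0.932% at 30 to 300 FPKM and 0.487% under 30, among genes expressed in at least 5 other populations). Oat, at a mean of 287 FPKM in normal hepatocytes and 297 after PH, falls in the middle range, close to its upper bound of 300. Outside normal cBEC, the hepatocyte markers Alb, Apoa1 and Ttr were listed at 0 in every library of the other populations. The cause of such zeros, those of Oat included, was not tested.

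Lgr4 and both ligases were highest in the biliary populations. Normal BEC held 24.9, 16.5, 24.8 and 23.6 FPKM of Lgr4, the R-spondin receptor, and normal cBEC 27.2, 20.2, 19.6 and 15.3. In normal hepatocytes it was at 7.59, 17.8, 17.2 and 6.94 FPKM. The lower hepatocyte pair lay beneath every biliary library, whereas the upper pair, libraries 2 and 3, reached into the biliary range. Next came NPD (7.21 ± 1.82 FPKM, SD, n = 2), Thy1 cells (6.43) and HSC (3.80), then LSEC, EC and KC between 0.871 and 1.75, and both normal blood libraries were listed at 0. After PH the BEC and cBEC libraries (19 to 27.2 FPKM) stood above every library of the other 8 populations. Against the mean of the other populations on the log2(FPKM + 1) scale, Lgr4 was higher by 2.38 ± 0.21 (SE) in normal BEC (limma adjusted p = 5.16e-09) and by 1.37 ± 0.21 in normal HC (limma adjusted p = 4.66e-06).

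Such contrasts called many genes. In normal liver 59 of the 100 pairs of a member and a population differed from the other populations (33 higher, 26 lower), where 48.5% of all pairs did. After PH 47 of 80 did (21 higher, 26 lower), where the share over all genes was 46.4%. The members' share lay near that of all genes. Within single populations the share of genes called in normal liver was 82.6% in HC, 58.2% in BEC, 56.5% in cBEC, 45.5% in LSEC, 33.8% in EC, 33.6% in NPD and 24.4% in Thy1 cells. After PH it was 81.6% in HC, 50.3% in LSEC and 37.6% in EC. The median of all genes in hepatocytes against the rest was -0.89 in normal liver and -0.88 after PH.

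Znrf3 followed the biliary pattern of Lgr4. Its normal BEC libraries held 10.4, 5.86, 12.1 and 11.5 FPKM and its normal cBEC libraries 9.26, 10.2, 8.97 and 7.58. These exceeded every library of the other 8 populations, the nearest being NPD at 2.5 and 5.46. The share of all genes with BEC and cBEC together above the other 8, as also seen for Lgr4 after PH and for Rnf43, was not counted. For 1 population above the other 9 the share was 41.6% in normal liver and 28.9% after PH. Hepatocytes were at 0.81, 1.6, 1.6 and 0.62 FPKM, and normal EC and LSEC at 0.387 or less. The sign of Znrf3 in hepatocytes against the rest was negative as deposited (-0.57 normal, -0.56 after PH) and positive after upper-quartile scaling or quantile normalization, so no direction is given for it there.

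Rnf43, the partner ligase, was at 9.55, 10.3, 11 and 9.46 FPKM in normal cBEC and at 10.6, 9.09, 9.87 and 9.25 in normal BEC. These libraries too stood above all others. Normal blood followed at 5.97 and 8.09 FPKM, then hepatocytes at 3.02, 4.64, 4.87 and 2.59. Rnf43 was listed at 0 in every KC and HSC library of both conditions. On the log2 scale normal cBEC exceeded the mean of the others by 1.96 ± 0.21 (SE, limma adjusted p = 6.48e-08). Over the 20 group means, Lgr4, Znrf3 and Rnf43 varied together, with Pearson's r of 0.81 for Lgr4 and Znrf3, 0.80 for both ligases and 0.72 for Lgr4 and Rnf43. These r values describe 20 groups that share the same libraries and scaling and carry no test.

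Lgr5, the second R-spondin receptor and a marker of the cells around the central vein, was scarce in this table. In hepatocytes it was at 0.11, 1.03, 1.01 and 0.23 FPKM in normal liver and at 0.39, 0.78, 0.22 and 0.35 after PH. Its highest library was the first PH NPD library, at 2.06 FPKM, whose partner held 0.387. All BEC and HSC libraries were listed at 0. It did not reach the minimum for testing in the hepatocyte comparison (1 FPKM in at least 4 of the 8 libraries).

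The co-receptors had another pattern, with the highest Lrp5 in sinusoidal endothelium and low levels of both in hepatocytes. Lrp5 was at 130, 172 and 108 FPKM in normal LSEC, and its 5 PH libraries held 202, 122, 163, 192 and 212. KC and EC libraries lay between 97.9 and 115 FPKM in normal liver and overlapped LSEC. Hepatocytes held 18.7, 15.9, 19.4 and 22.6 FPKM, below every library of the other populations except blood at 0.352 and 0.85. Lrp5 in LSEC exceeded the mean of the others by 1.78 ± 0.16 (SE, limma adjusted p = 1.22e-08) in normal liver and by 1.44 ± 0.19 (limma adjusted p = 1e-06) after PH.

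Lrp6 was broad, with means of 41.8 to 47.1 FPKM in BEC, cBEC, LSEC and KC of normal liver, whose libraries overlapped. In hepatocytes it was at 4.69, 14.6, 16.4 and 4.09 FPKM, the lower pair again being libraries 1 and 4. Hepatocytes were below the mean of the other populations by 1.56 on the log2 scale for Lrp6 (-1.56 ± 0.26 SE, limma adjusted p = 9.81e-06) and by 1.28 for Lrp5 (-1.28 ± 0.14, limma adjusted p = 3.09e-08). Both calls in normal hepatocytes were lost after upper-quartile scaling, which centres the libraries differently, and are read against the median of -0.89 for all genes. After PH both calls remained under the scalings tried, at -1.83 ± 0.18 for Lrp6 and -2.33 ± 0.21 for Lrp5 as deposited.

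**Figure D1:**
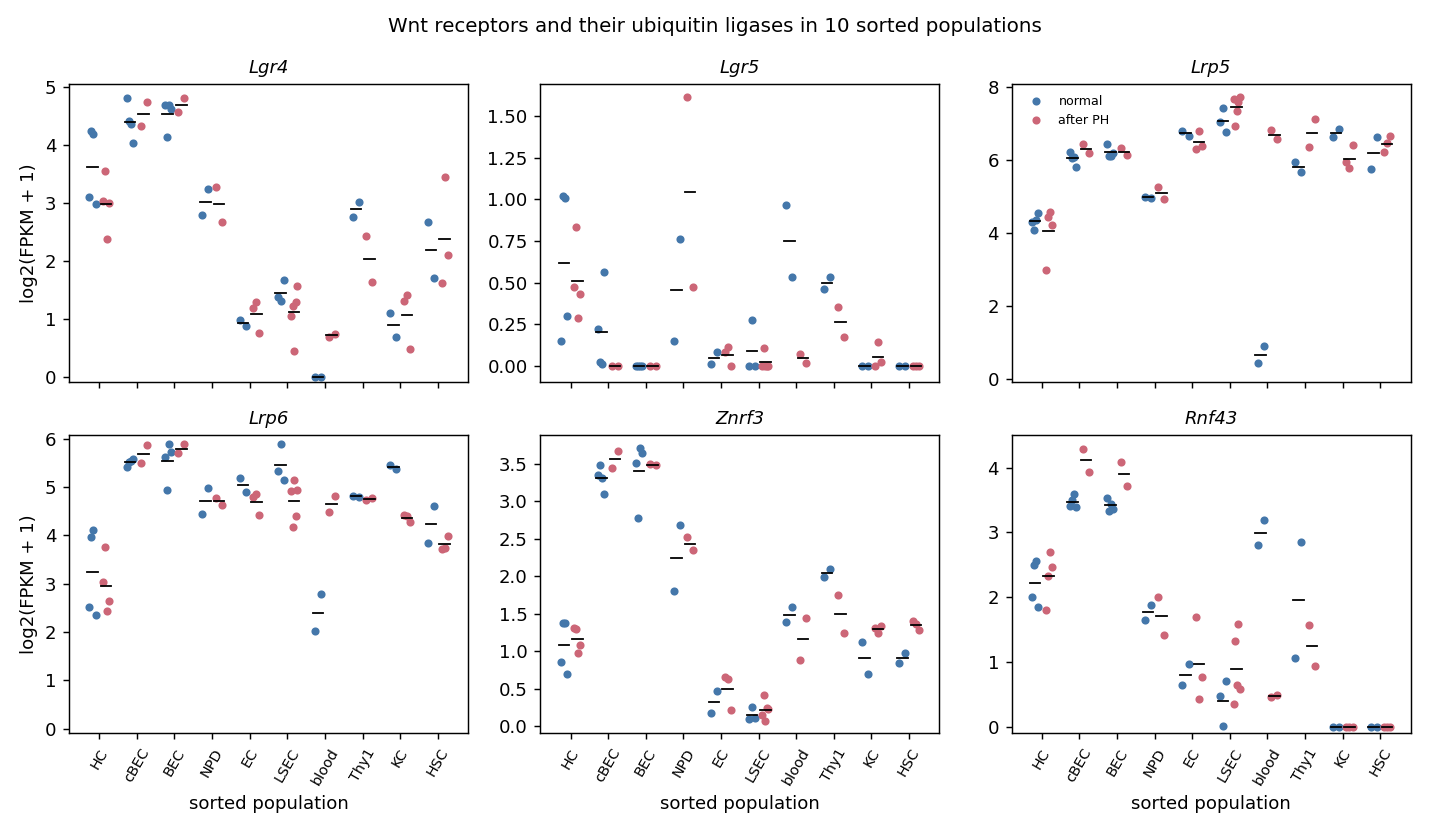
Each panel plots 1 gene as log2(FPKM + 1), with a point for each library of the 10 sorted populations (blue normal, red after PH) and a bar for the group mean. Lgr4, Znrf3 and Rnf43 are highest in cBEC and BEC, Lrp5 is highest in LSEC, and Lgr5 stays under 2.06 FPKM or at that value in every library.

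By Pearson's r over the 20 group means, the genes most like each receptor or ligase were Garem (0.972), Lzts3 (0.962) and Tmem102 (0.961) for Lgr4. They were Ptgr1 (0.970), Hook2 (0.962) and Rap1gap (0.961) for Znrf3, and Sqle (0.967), Rab3ip (0.962) and Mob3b (0.958) for Rnf43. For Lrp6 they were Ago1 (0.968), Cdk13 (0.963) and Psd3 (0.957), and for Lrp5 Ddx23 (0.938), Ccny (0.938) and Ric1 (0.934). The scarce Lgr5 had the lowest values of these receptors, with Dhrs9 (0.880), Cmah (0.873) and Gpsm2 (0.850).

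The Frizzled receptors, which pair with Lrp5 and Lrp6, had their highest normal mean in different populations. Fzd4 was highest in LSEC (88.2 FPKM), Fzd6 in EC (49), Fzd2 (28.9) and Fzd7 (45.9) in NPD, and Fzd1 (43.2) and Fzd8 (14.5) in HSC. Fzd5 (25.2) and Fzd3 (3.77) were highest in cBEC, Fzd9 (10.9) in BEC and Fzd10 (0.83) in Thy1 cells. Of the other receptors listed, Ror1 (36.1) and Ptk7 (34.6) were highest in BEC and Ryk (139), Adgra2 (68.6) and Reck (66.1) in HSC. Ror2 (2.6) was highest in Thy1 cells, Kremen1 (46.8) in NPD, and Kremen2 (1.73) in blood, while Lgr6 did not pass 1.11 FPKM in cBEC, its highest population. The libraries of the leading population exceeded all others for Fzd2, Fzd6, Fzd7, Fzd8, Ror2, Ryk, Reck and Kremen2, and overlapped another population for the rest of those compared here, as for Fzd4 (76.2 in its lowest LSEC library, 82 in the highest library elsewhere).

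Among the target genes, Tbx3 marked hepatocytes and Axin2 did not. Tbx3, a transcription factor, was at 1.79, 4.66, 5.25 and 2.47 FPKM in normal hepatocytes, and the highest library elsewhere was a Thy1 library at 0.843. It exceeded the mean of the others by 1.99 ± 0.14 (SE) on the log2 scale. No library elsewhere reached 1 FPKM, so Tbx3 met the minimum for testing only through hepatocytes. Its contrast against the rest is therefore a description, and no p is given for it. One population above every library of the other 9 was seen for 41.6% of all genes tested in normal liver and 28.9% after PH. The genes whose group means were most like those of Tbx3 were Cyp2b10 (r = 0.972), Elovl3 (0.972) and Cyp7a1 (0.967), each highest in normal hepatocytes.

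Axin2 was highest in NPD, at 7.12 and 8.04 FPKM, and in Thy1 cells, at 7.37 and 6.35. Hepatocytes held 0.57, 1.89, 2.2 and 1.36 FPKM and overlapped HSC, EC, blood, cBEC and LSEC. BEC and KC were lowest, at 0.86 or less, and BEC reached the lowest hepatocyte library. NPD exceeded the mean of the others by 1.71 ± 0.26 (SE, limma adjusted p = 2.25e-05) and Thy1 cells by 1.57 ± 0.26 (limma adjusted p = 8.23e-05). In the same groups the 5 mesothelial markers (Msln, Upk3b, Gpm6a, Wt1 and Upk1b) were all at 1 FPKM or more, with summed levels of 5468 to 6024 FPKM in NPD and 1782 to 2767 in Thy1 cells, against 175 or less in the normal EC, LSEC, KC, HSC and blood libraries. Normal cBEC, whose Axin2 was at 0.794 to 1.93 FPKM, had a summed mesothelial level of 140 to 458 FPKM. Their part in the Axin2 level was not tested. The genes most like Axin2 over the 20 groups were Nxnl2 (r = 0.887), Asns (0.884) and Fndc1 (0.871).

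Glul was highest in endothelial cells and not in hepatocytes. EC held 445 and 617 FPKM in normal liver and 1168, 935 and 895 after PH, above every library of the other populations in both conditions. KC (250 and 236 FPKM), hepatocytes (158, 241, 273 and 177) and LSEC (214, 104 and 303) overlapped one another. Normal blood was lowest at 7.32 and 6.83. EC exceeded the mean of the others by 2.46 ± 0.34 (SE, limma adjusted p = 9.46e-06) in normal liver and by 3.03 ± 0.32 (limma adjusted p = 7.99e-08) after PH. Hepatocytes were above the mean of the others in normal liver (0.98 ± 0.25, limma adjusted p = 0.00128, a call lost under quantile normalization) and below it after PH (-1.92 ± 0.28, limma adjusted p = 1.66e-06). The gene most like Glul, Mir8114 (r = 0.971), overlaps the start of the Glul locus in the table, so reads of both cannot be told apart, and Anp32a (0.875) and Gna12 (0.851) followed.

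Oat, the mitochondrial enzyme that joins ornithine to glutamate metabolism, was at 269, 370, 265 and 243 FPKM in normal hepatocytes. HSC (257 and 244) and NPD (304 and 195) overlapped that range. All BEC libraries and 5 of the 6 cBEC libraries were listed at 0, and the first normal cBEC library held 27.2. That library was also the one of its group with hepatocyte markers, at a summed level of up to 858 FPKM against 0 at the lowest, with Apoa1, Apob and Cyp3a11 at 0 throughout, and their part in its Oat value was not tested.

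**Figure D2:**
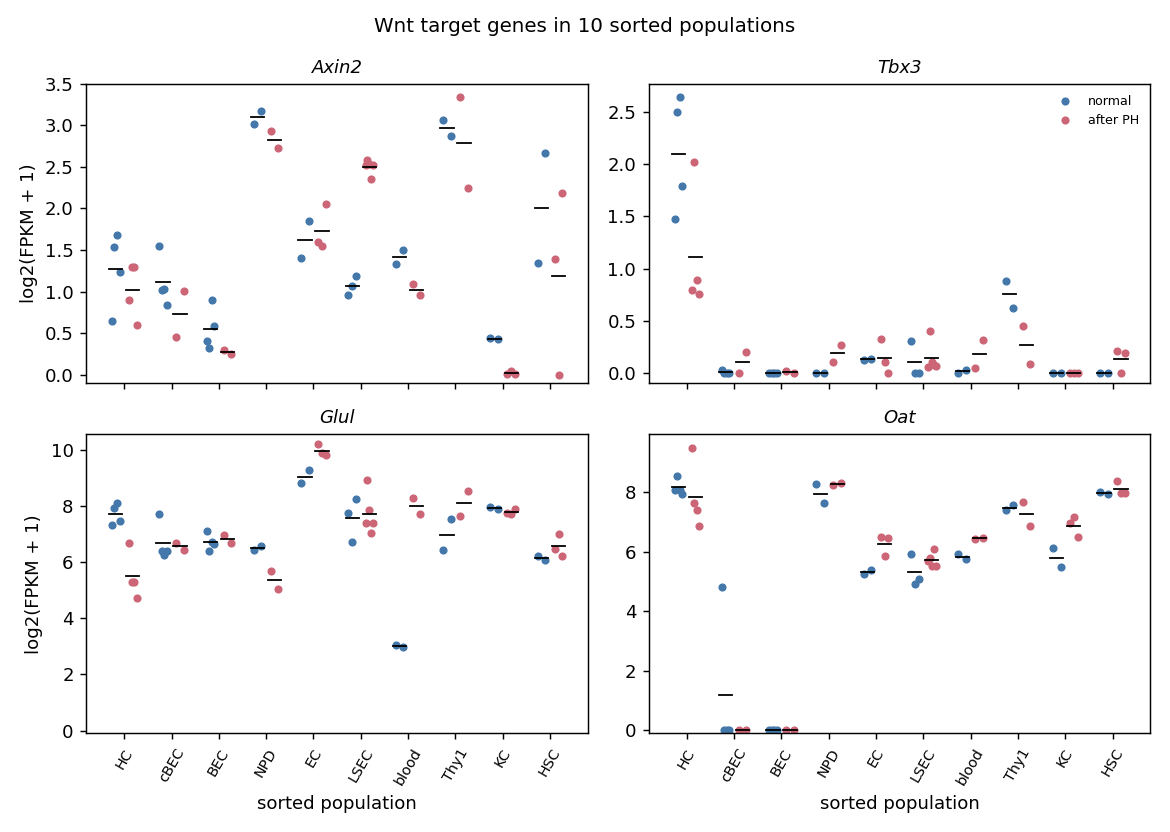
Each panel plots 1 target gene as log2(FPKM + 1), with a point for each library of the 10 sorted populations (blue normal, red after PH) and a bar for the group mean. Tbx3 stands out in HC, Glul in EC, and Axin2 in NPD and Thy1 cells, while the PH LSEC libraries of Axin2 sit above the normal ones.

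In hepatocytes after PH, Glul fell and no other member passed the test. Glul was at 158, 241, 273 and 177 FPKM in the normal libraries and at 102, 38.1, 38.5 and 25.6 after PH. The ranges did not overlap, every PH library lying under every normal one, with PH library 1 the nearest. The change was -2.20 ± 0.39 (SE) on the log2 scale with a limma adjusted p of 0.0105, and the normal mean was 4.16 times the PH mean. Of the 9 members tested 1 was called, where 6.19% of the 10029 genes tested were called (4.41% lower). PH libraries all under the normal ones were seen for 13.2% of genes. Glul passed in 15 of the 16 alternatives tried (adjusted p 1.45e-05 to 0.0986), the exception being the fit without normal libraries 2 and 3 together, at -1.89 with an adjusted p of 0.0986. In these sorted pools, fewer Glul-expressing hepatocytes and less Glul RNA per cell cannot be told apart.

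The other 3 targets did not pass. Tbx3 was at 0.73, 3.07, 0.85 and 0.69 FPKM after PH, against 1.79 to 5.25 in normal hepatocytes. PH libraries 1, 3 and 4 lay beneath all normal libraries, and library 2 lay among them. Its change was -0.99 ± 0.36 (SE, limma adjusted p = 0.142), and it passed in only 1 of 16 alternatives. That was the single fit of all 20 groups (limma adjusted p = 0.000247), whose spread includes populations with Tbx3 near 0. Axin2 was at 0.87, 1.45, 1.46 and 0.52 FPKM after PH, within the normal range of 0.57 to 2.2 but for library 4 (-0.25 ± 0.26, limma adjusted p = 0.639). Oat was at 708, 199, 167 and 114 FPKM after PH (-0.31 ± 0.48, limma adjusted p = 0.768). Its PH library 1 lay above all normal libraries and the other 3 below them all.

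Nor did any receptor or ligase pass in hepatocytes. Lgr4 was at 7.16, 10.7, 4.2 and 6.98 FPKM after PH, with a change of -0.64 ± 0.36 (SE, limma adjusted p = 0.341) that became -0.06 without normal libraries 2 and 3. Lrp5 was at 6.88, 20.9, 23 and 17.7 FPKM (-0.26 ± 0.34, adjusted p = 0.711), where library 1 stood apart from the other three. Lrp6 was at 7.16, 12.5, 4.39 and 5.2 FPKM (-0.27 ± 0.46, adjusted p = 0.788). The ligases held their normal levels to within the spread of the libraries, Znrf3 with 0.96 to 1.48 FPKM after PH (0.09 ± 0.21, adjusted p = 0.859) and Rnf43 with 2.49 to 5.46 (0.10 ± 0.25, adjusted p = 0.874). The median change of the 9 tested members was -0.27, and that of all genes was -0.07.

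**Figure D3:**
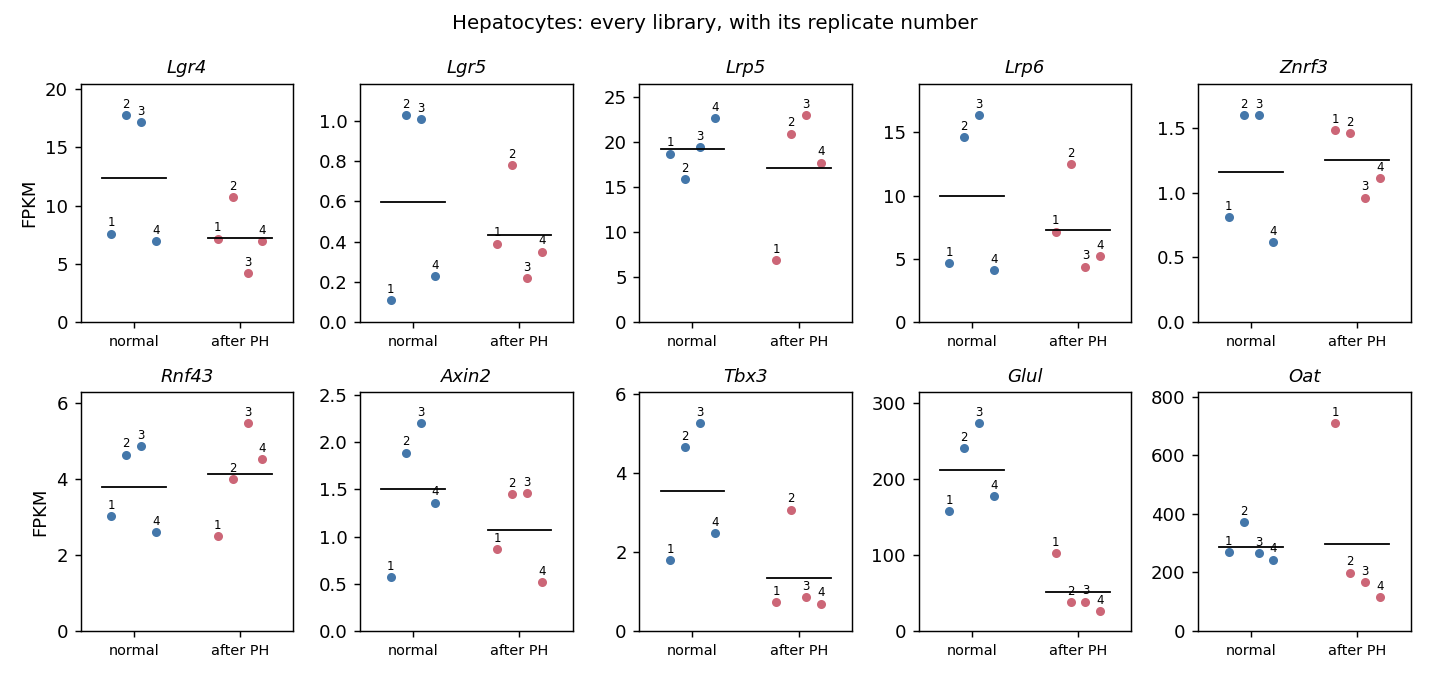
FPKM of each member in the 8 hepatocyte libraries, numbered by replicate, with a bar for the mean of the 4 normal (blue) and 4 PH (red) libraries. The Glul ranges are separate (158 to 273 and 25.6 to 102), and normal libraries 2 and 3 lie above 1 and 4 for 8 of the 10 genes, as for 4702 of the 10029 genes tested.

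Other genes of the pathway and of the pericentral zone were read from lists of known genes, chosen with earlier results of these data known. Of 26 further pericentral genes 25 were tested, 9 fell and 1 rose, where 4.41% of all genes fell and 6.19% were called. Their median change was -1.01, against -0.07 for all genes. Cyp2a5 led, from 90.4 ± 40.8 FPKM (SD, n = 4) to 13 ± 13.6 (-3.11, limma adjusted p = 0.0203), followed by Cyp2c29 (-2.30, adjusted p = 0.0118), both cytochrome P450 enzymes. Rhbg, an ammonium transporter, went from 9.3 ± 2.14 to 1.23 ± 0.402 FPKM (-2.20, limma adjusted p = 0.000559). The other 6 that fell were Cyp1a2, Cyp27a1, Cyp2c37, Cyp2e1, Cyp2c50 and Cyp2c54. Nr1i3, the nuclear receptor CAR, rose by 1.20 (limma adjusted p = 0.0451). Without normal libraries 2 and 3 the list had 2 falls and no rise, with 2.19% of all genes called (1.39% lower). Leaving out 1 library in turn gave 3 to 12 falls, where 2.05% to 4.82% of all genes were called lower. The fewest, 3, came without normal library 2, normal library 3 or PH library 4. Nr1i3 lost its call without any 1 hepatocyte library except PH library 1 (adjusted p 0.0707 to 0.131), and Cyp2a5 without normal library 2, normal library 3 or PH library 4 (0.0607 to 0.0647). With no filter on low values both lost theirs (limma adjusted p 0.0963 for Nr1i3, 0.0617 for Cyp2a5), and so did Nr1i3 after upper-quartile scaling (0.0544). With no filter the list had 5 falls and no rise, where 1.78% of all genes were called lower. Rhbg kept its call without normal libraries 2 and 3 together (limma adjusted p = 0.0118).

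Of 15 genes of the opposite, periportal zone, all tested, 5 fell, where 4.41% of all genes did, and 11 had a negative change, with a median of -0.89. They were Gls2 (-1.91, limma adjusted p = 0.00655), a glutaminase, Ass1 (-1.79, adjusted p = 0.0267), an enzyme of the urea cycle, Cyp2f2 (-1.76, adjusted p = 0.00883), Uroc1 and Pigr. Ass1 lost its call without normal library 1, normal library 4, PH library 1 or PH library 2 (adjusted p 0.0594 to 0.0784). It also lost it with no filter on low values (limma adjusted p = 0.0672) and after upper-quartile scaling (0.0593). A difference between the lists was not tested. Without normal libraries 2 and 3, 2 of the 15 fell, where 1.39% of all genes did, and the median was -0.86.

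The calls within the pathway itself are given by list, where 6.19% of all genes tested in hepatocytes were called. Fzd8, a Frizzled receptor, fell from 3.54 ± 0.671 to 0.993 ± 0.249 FPKM (SD, n = 4; -1.19, limma adjusted p = 0.00625), the 1 call among the 8 tested of 19 receptors and co-receptors. Notum, a secreted enzyme that inactivates Wnt ligands and is itself a target gene, fell from 10.6 ± 2.38 to 4.96 ± 0.777 FPKM (-0.95, limma adjusted p = 0.0273) and was the 1 gene tested of 17 inhibitors and feedback genes. Without normal libraries 2 and 3 neither passed, at -1.01 (adjusted p = 0.0701) for Fzd8 and -0.69 (0.194) for Notum. Notum also lost its call without normal library 1, 2 or 3 or PH library 2 or 4, each left out alone (0.0508 to 0.0907). Of 20 transducers 15 were tested and 0 called by limma. The smallest p belonged to Dvl1, at -0.52 (unadjusted p = 0.0193, limma adjusted p = 0.14). Further target genes Sp5 and Nkd1, singled out after their values were seen, were too low to test. Sp5 had at most 0.2 FPKM in the PH libraries against 0.49 to 0.93 in the normal ones, and Nkd1 at most 0.18 against 0.38 to 0.65. All PH libraries under the normal ones were seen for 13.2% of the genes tested. With no filter on low values, 12 of the 17 inhibitors and feedback genes were tested and 3 were called lower, where 1.78% of all genes were.

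**Figure D4:**
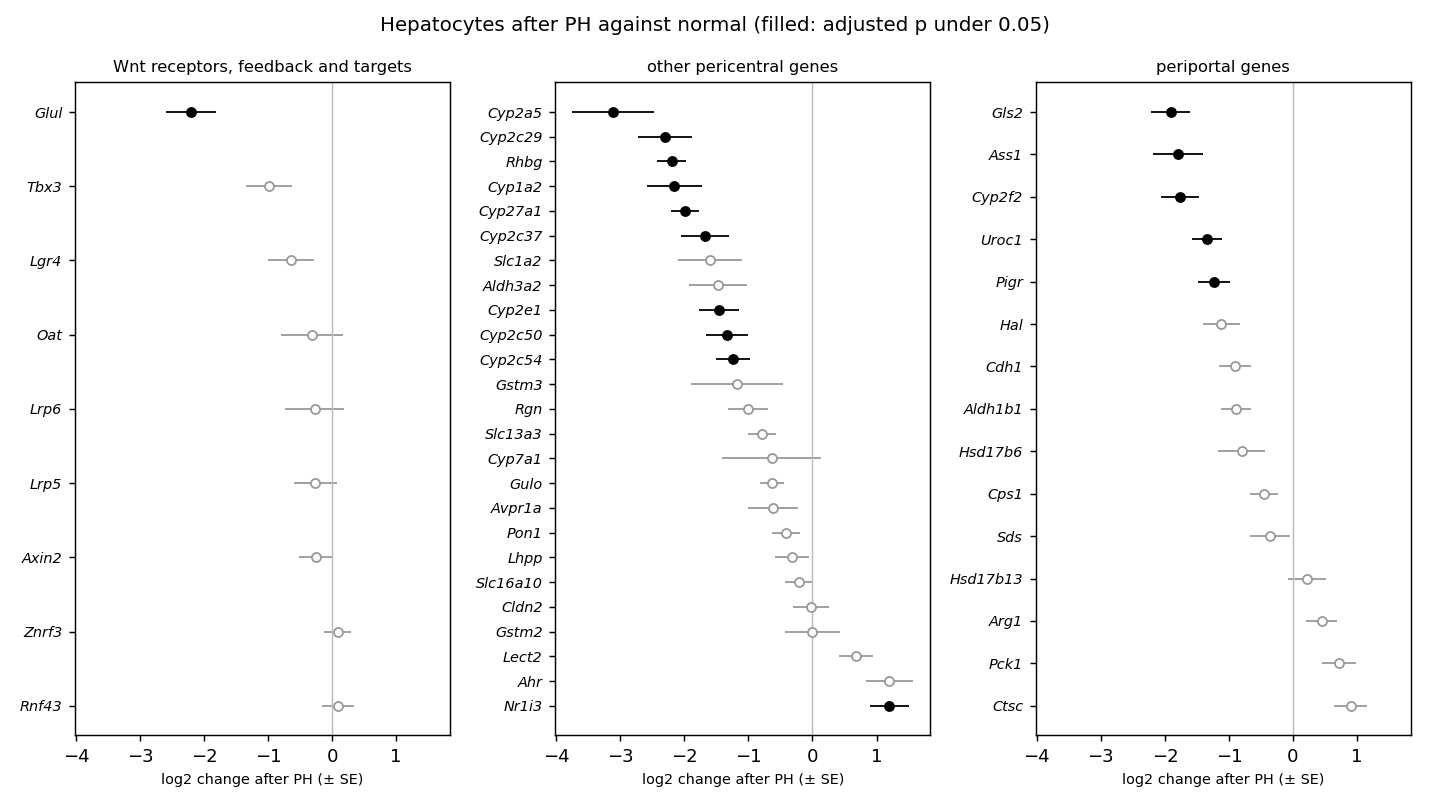
Log2 change after PH in hepatocytes with its SE (bars), on the log2(FPKM + 1) scale, for the 9 tested members, 25 pericentral and 15 periportal genes, with filled points where the limma adjusted p was under 0.05. Glul (-2.20) lies among the pericentral genes that fell, and 5 periportal genes are filled as well.

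In the other 9 populations 9 of 61 pairs of a member and a population were called after PH (6 higher, 3 lower), where 14% of all pairs were. Axin2 rose in the LSEC libraries. It was at 0.94, 1.1 and 1.27 FPKM in normal LSEC and at 4.75, 5.01, 4.8, 4.1 and 4.76 after PH. All 5 PH libraries lay above all 3 normal ones. The change was 1.44 ± 0.18 (SE) with a limma adjusted p of 0.00278, and the PH mean was 4.25 times the normal mean. In LSEC 8.46% of genes were called (4.15% higher), and 8.27% had all PH libraries above the normal ones. Axin2 passed in 14 of 15 alternatives, with changes of 1.38 to 1.49 when each LSEC library was left out in turn. The replicate block ended the call (1.48, limma adjusted p = 0.157).

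Markers of the populations richest in Axin2 were read in LSEC, as were endothelial markers. The summed mesothelial level was 3.29 to 39.6 FPKM in normal and 7.94 to 57.9 in PH LSEC, and the summed level of the Thy1 fibroblast markers (Thy1, Entpd2, Eln, Mfap4 and Dpt) was 7.22 to 63.3 and 11.8 to 84.3. The 5 sinusoidal markers (Stab1, Stab2, Lyve1, Clec4g and Fcgr2b) summed to 4238 to 8309 FPKM in normal and 1330 to 4862 in PH LSEC. Their score went from 9.87 to 8.66, while that of the endothelial markers went from 8.31 to 8.85. The part of any of these markers in the Axin2 change was not tested. Of the inhibitors and feedback genes 5 were tested in LSEC and 1 rose, Apcdd1, a membrane inhibitor of Wnt signalling. It was at 0.686, 0.12 and 3.21 FPKM in normal and at 7.75, 10.6, 10.1, 5.58 and 10.6 in PH LSEC (2.28 ± 0.39, limma adjusted p = 0.0095; 0.0527 without normal library 1). Of 17 transducers tested in LSEC 1 was called, Apc, which fell (-0.84 ± 0.19, limma adjusted p = 0.0242), where 4.31% of all genes fell. Apc lost its call in the single fit of all groups (0.0839) and without normal library 1 (0.0908), normal library 2 (0.0893) or PH library 1 (0.0603). None of the other members passed in LSEC, the nearest being Lrp6 (-0.75 ± 0.25, limma adjusted p = 0.1), and the Axin2 levels of EC (1.65 and 2.59 FPKM normal; 2.02, 1.92 and 3.14 after PH) overlapped.

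Of the remaining calls, 1 was in NPD, 2 in KC and 5 in blood. In NPD Glul went from 84.1 and 92.8 to 50.7 and 31.7 FPKM (-1.12 ± 0.26, limma adjusted p = 0.0472, with 15.2% of genes called), and it passed in 4 of 11 alternatives. In NPD the summed endothelial markers went from 145 to 170 FPKM in normal liver to 46.9 to 57.5 after PH, and the Kupffer markers from 79.4 to 172 to 4.06 to 7.11. Their part in the Glul change was not tested. In KC Lrp6 was at 43 and 40.6 FPKM in normal liver and at 20.3, 20.1 and 18.4 after PH, ranges that did not overlap. It fell by 1.05 on the log2 scale (SE 0.12, limma adjusted p = 0.00276), where 36.8% of genes were called in KC and 34.7% had all PH libraries below, and passed in 12 of 12 alternatives. Oat in KC, at 68.1 and 43.3 FPKM in normal liver and 123, 143 and 89.2 after PH, rose by 1.08 ± 0.28 (limma adjusted p = 0.0311) and passed in 6 of 12. The summed sinusoidal markers in KC went from 2877 to 3941 FPKM in normal liver to 291 to 498 after PH, and their part in these values was not tested.

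In blood, where 64% of genes were called, Lrp5 (0.352 and 0.85 FPKM normal, 112 and 93.9 after PH), Glul (7.32 and 6.83, then 310 and 207), Lrp6 (3.06 and 5.87, then 21.5 and 27.1) and Oat (58.9 and 53.4, then 85.7 and 86) rose. Oat passed in 8 of 11 alternatives, losing its call in the single fit of all groups (limma adjusted p = 0.536) and without normal library 1 (0.104) or 2 (0.138), and Lrp6 passed in 10 of 11, losing it without normal library 1 (0.0538). Rnf43 fell there, from 5.97 and 8.09 to 0.376 and 0.408 FPKM (-2.52 ± 0.22, limma adjusted p = 0.00134). The summed leukocyte markers (Ptprc, Cd3e, Cd79a, Nkg7 and S100a8) went from 4061 to 4246 FPKM in normal to 526 to 983 in PH blood, and the sinusoidal ones from 630 to 721 up to 2289 to 5082. Their part in these changes was not tested.

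Some members were separate between conditions without passing the test. The PH libraries held 18.6 and 14.2 FPKM of Rnf43 in cBEC and 16 and 12.2 in BEC, above every normal library of its population, but the changes were 0.64 ± 0.20 (limma adjusted p = 0.384) and 0.49 ± 0.18 (limma adjusted p = 0.241). Few genes were called there, 0.0681% in cBEC and 1.81% in BEC, while all PH libraries lay above the normal ones for 6.62% and 5.29% of genes. Glul in EC, with PH libraries all above the normal ones, gave 0.92 ± 0.24 (limma adjusted p = 0.279). Oat was separate there too (36.6 and 40.8 FPKM, then 88.2, 56.9 and 86.6), at 0.95 ± 0.24 (limma adjusted p = 0.27). In EC 0.0249% of genes were called and 16.6% had all PH libraries above. In Thy1 cells and HSC no member was called by limma, where 0.00747% and 0.00853% of genes were. Of 8 members tested in Thy1 cells, 2 had all PH libraries above the normal ones and 3 all below, where 53.2% of all genes were separate. In KC the PH libraries of Lrp5 (60.6, 53.7 and 83.9 FPKM) lay below the normal ones (97.9 and 115), where 34.7% of genes did. Its change was -0.70 ± 0.22 (limma adjusted p = 0.0527). Axin2 in KC was at 0.357 and 0.342 FPKM in normal liver and at 0.0291 or less after PH, too low to test.

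**Figure D5:**
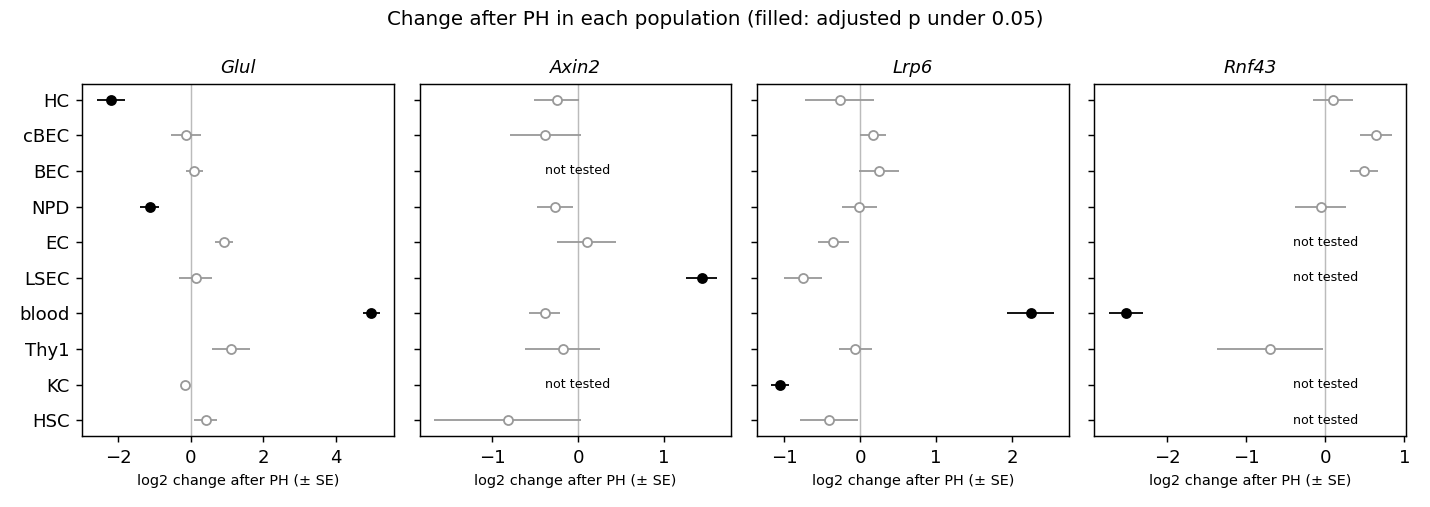
Log2 change after PH with its SE (bars), on the log2(FPKM + 1) scale, of Glul, Axin2, Lrp6 and Rnf43 in each population, with filled points where the limma adjusted p was under 0.05. Glul is lower in HC (-2.20) and NPD (-1.12) and higher in blood (4.98), and Axin2 is called only in LSEC (1.44).

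Whether a response differed between populations was tested over all 55 libraries in a single fit. By the limma F test the response of 6 of the 10 members differed (Axin2, Glul, Lrp5, Lrp6, Rnf43 and Tbx3), where 47.8% of all genes did, and 3 of 10 did without the blood and Thy1 groups. The response of hepatocytes minus the mean response of the other 9 populations passed for 3 members, all lower, where 9.49% of genes passed (6.05% lower). For Glul it was -2.90 ± 0.39 (SE, limma adjusted p = 8.4e-07), and -2.23 (limma adjusted p = 0.000143) without the blood and Thy1 groups. For Tbx3 it was -1.01 ± 0.20 (limma adjusted p = 0.000636), and -1.06 (limma adjusted p = 0.00097) without them, although the PH change within hepatocytes alone did not pass. No Tbx3 library of the other populations reached 1 FPKM in either condition. This contrast is therefore little more than the hepatocyte change (-0.99), set against a spread shared with groups near 0. It adds no support to that change. For Lrp5 the difference was -1.05 ± 0.26 (limma adjusted p = 0.00532). Without the blood and Thy1 groups it was -0.28 (limma adjusted p = 0.632), so it rested on those groups.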

How the data were processed

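The authors deposited 1 table of FPKM per transcript and library, named so by them, with no unit in its column headers. Reads were processed with CASAVA 1.8.2 and Bowtie 1.0.0 on mm9, per the submitters' processing notes; the counting tool is not given in the sources used here. The table holds 36141 rows for 24478 symbols; a symbol with several rows was represented by its most abundant row. Starts are counted from 0 in 1467 of 1522 small RNA rows, so 1 was added to each start. FPKM keep no read depth, so no counting interval is given. All 55 columns carry a sample title, which set the group; 1 PH KC library has no cell type tag.

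Linear models on log2(FPKM + 1) came from limma 3.58.1 (R 4.3.3), with trend and robust moderation, two-sided, and called at a Benjamini-Hochberg adjusted p under 0.05 over all genes tested. This scale understates changes of low genes. A gene was tested with at least 1 FPKM in a number of libraries equal to the smaller group's size. PH against normal used that population's libraries, each population against the rest used 1 condition, and response differences used all 20 groups. The fits were tested on simulated data. The members and lists were chosen with earlier results of these data known. Named were all members, from each list the 3 largest rises and falls called in hepatocytes (the smallest p where none was called), the top population of each Frizzled-list gene, and the 3 genes most like a member (predicted genes and genes under 5 FPKM in every group left out); those for Oat are not reported here. Other listed genes named were chosen after their values were seen. Alternatives were a pseudocount of 0.1, no filter, upper-quartile scaling, quantile normalization, the mean over a symbol's rows, a single fit of all groups, a replicate block and leaving out each library. Leaving out normal HC libraries 2 and 3, leaving out the blood and Thy1 groups, and the alternatives for the lists were chosen after seeing the data. Figures used Python 3.11.15 and matplotlib 3.10.9.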

Additional observations from a re-analysis of the deposited data

Results flagged for a closer look

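Within groups of 4 or 5 libraries, 5 of 40 groups examined had a library far from the others by Dixon's criterion at 95%, where chance gives about 2. Lgr4 was low in normal BEC library 2 (16.5 FPKM, the others 23.6 to 24.9), and Axin2 was low in PH LSEC library 4 (4.1 FPKM, the others 4.75 to 5.01). Tbx3 was high in PH HC library 2 (3.07 FPKM, the others 0.69 to 0.85). Not flagged was PH HC library 1, at 102 FPKM of Glul (the others 25.6 to 38.5) and 708 FPKM of Oat (the others 114 to 199). Normal cBEC library 1 was high for both Glul (208 FPKM, the others 75.1 to 82.6) and Oat (27.2 FPKM, the others listed at 0).

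The response to PH differed between the 10 populations by the limma F test over all groups for 6 members, with adjusted p of 5.22e-14 for Lrp5, 2.31e-09 for Glul, 0.000173 for Rnf43, 0.000553 for Lrp6, 0.00617 for Axin2 and 0.0118 for Tbx3. The response of hepatocytes minus the mean response of the other populations stood apart for Glul (-2.90), Lrp5 (-1.05) and Tbx3 (-1.01). For Tbx3, near 0 outside hepatocytes, it is little more than the hepatocyte change, which did not pass by itself. The Lrp5 difference was -0.69 (limma adjusted p = 0.0536) without PH HC library 1.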

How the results depend on the processing

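The members called in hepatocytes, 1 as reported, were 2 (Glul and Tbx3) in the single fit of all groups and 0 without normal HC libraries 2 and 3; responses that differed, 6 as reported, were 3 without the blood and Thy1 groups. Leaving out each library gave 1 member called in hepatocytes throughout, 7 to 10 of 61 pairs in the other populations, 56 to 65 of 100 in normal liver against the rest, 45 to 55 of 80 after PH, and 5 to 7 responses. Among members' changes in hepatocytes after PH, signs turned only where the test had not been passed; against the rest, Znrf3 turned in HC under both scalings and in PH HSC under quantile normalization. In hepatocytes they were Lrp6 (-0.57 to 0.02 leaving out 1 library, 0.53 without normal 2 and 3), Axin2 (0.08 without 2 and 3), Rnf43 (-0.03 to 0.27), Znrf3 (-0.04 to 0.19), Lrp5 (-0.44 to 0.10) and Oat (-0.86 to 0.02). For the hepatocyte response minus the others they were Axin2 (0.08 with a pseudocount of 0.1, -0.33 to 0.02 leaving out 1 library), Lgr5 (0.20 with that pseudocount, -0.21 to 0.08), Lrp6 (-0.57 to 0.02, and 0.04 without blood and Thy1), Rnf43 (-0.15 without blood and Thy1) and Znrf3 (-0.08 with quantile normalization, -0.14 without blood and Thy1, -0.12 to 0.11 leaving out 1 library). The cause was not tested.

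Same-numbered libraries did not deviate together in every pair of any population with 3 or more pairs (correlations -0.67 to 0.57 in HC, -0.24 to -0.02 in LSEC), so the numbers are not taken to pair the samples. With a replicate block Glul in hepatocytes was at -2.20 (limma adjusted p = 0.042). Axin2 in LSEC was at 1.48 (limma adjusted p = 0.157), the 1 call of a named member lost. Notum (limma adjusted p = 0.0687), Nr1i3 (0.0696), Cyp2a5 (0.0569) and Ass1 (0.0546) in hepatocytes and Apcdd1 (0.133) and Apc (0.216) in LSEC lost theirs too. Pericentral falls in hepatocytes went from 9 to 5 and periportal falls from 5 to 3. Over all genes the share called lower went from 4.41% to 2.04%. Unknown depth limits Lgr5, Tbx3, Axin2 and Znrf3, which are near 1 FPKM in many libraries. With 2 libraries in many groups, values in NPD, blood and Thy1 cells rest on few samples.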
